A study of Mus musculus with 8 samples.

Results

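Nuclear receptors are transcription factors, many of which are switched by small lipophilic ligands. Described here are the 10 nuclear receptor transcripts Esrrb, Esrra, Nr0b1, Nr5a2, Nr6a1, Nr2f6, Nr1h2, Rarg, Rara and Rxra in mouse embryonic stem (mES) cells with and without Trim71. They were taken by gene symbol from the deposited table, and all 10 were present among its 13558 transcripts. A further 12 nuclear receptors were measured in the same table and serve as a comparison.

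Trim71 encodes an RNA-binding ubiquitin ligase, and the comparison asked which mRNAs change in mES cells that lack it. The 8 mRNA-seq libraries came from male C57BL/6 cells, and 4 were Trim71 conditional (WT) and 4 Trim71 mutant (KO, genotype Trim-/- in the labels). Per the study's methods, cells of both genotypes carried a floxed Trim71 allele and Cre recombinase fused to a tamoxifen-responsive receptor at the Rosa26 locus, and recombination removes exon 4. Mutation was induced per the labels with 500 nM 4-hydroxytamoxifen (4-OHT) for 2 days. The mutant cells were then kept for at least 7 further days. All cells grew in serum with LIF, and cells with the surface antigen SSEA-1 were sorted magnetically before lysis. The study's methods give a lower dose of 4-OHT and a shorter further culture, with DMSO as the vehicle for control cells. The labels give no treatment for the WT libraries. Genotype and exposure to 4-OHT thus cannot be told apart here. Both genotypes came from the same pair of clones, E3 (3 KO and 2 WT libraries) and clone 1 (1 KO and 2 WT libraries), so that n = 4 counts libraries and not independent lines. Whether libraries of a clone came from separate cultures is not stated, and the p-values measure the spread between these libraries.

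The nuclear receptor superfamily shares a DNA-binding domain with zinc fingers and a ligand-binding domain that recruits corepressors or coactivators. In mES cells, Esrrb and Nr5a2 are known as members of the network that keeps self-renewal, Nr0b1 as a partner of that network, and Nr6a1 as a repressor of Pou5f1 once cells differentiate. The retinoic acid receptors bind DNA together with a retinoid X receptor and start differentiation programmes when retinoic acid is present.

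The values are normalized read counts to which the authors applied a clone correction. Recovered reads in the deposited transcripts ranged from 6849851 to 25460153 per library, and for the receptors from 103 reads (Nr2f6, WT replicate 4) to 24078 reads (Esrrb, WT replicate 3). No receptor had a value at the floor of 1. Trim71 was 247 to 793 in KO and 1988 to 2782 in WT, and the groups did not overlap. Where 4 values are listed for a genotype, they are those of replicates 1 to 4 in that order. Embryonic stem cell markers such as Pou5f1, Sox2 and Nanog summed to 61227 to 78781 in KO and 55641 to 70386 in WT. None of those 9 markers passed the criterion used throughout, which is an unadjusted p under 0.05 in limma together with a fold change of at least 1.5. KO replicate 1 (day 2) and WT replicate 1 (day 1) had no library of the other genotype from the same day, whereas days 3, 4 and 5 had a library of both.

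Esrrb was by far the highest of the receptors when values were divided by transcript length. Its level in WT was 2056 ± 351 per kb (SD, n = 4), against 832 ± 150 per kb for Nr0b1. Nr1h2 followed with 471 ± 30.8 per kb and Rarg with 448 ± 135 per kb, and these neighbours overlapped. Then came Rara (208 ± 35.6 per kb) and Nr6a1 (205 ± 24.3 per kb), which also overlapped. Esrra (127 ± 17.6 per kb), Nr5a2 (111 ± 24.9 per kb), Nr2f6 (87.0 ± 6.73 per kb) and Rxra (70.8 ± 6.33 per kb) closed the order, each overlapping the next. The lengths are those of the longest RefSeq-matched transcript, so the order holds only as far as that isoform was the one present.

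In KO the same receptors stood at both ends of the order. Esrrb was at 2052 ± 442 per kb (SD, n = 4), Nr0b1 at 1141 ± 238 per kb and Rxra at 77.2 ± 18.1 per kb. Nr6a1 stood seventh with 134 ± 15.7 per kb, behind Esrra with 159 ± 38.5 per kb, and the ranges of these neighbours overlapped. Rarg (656 ± 135 per kb) stood ahead of Nr1h2 (565 ± 79.1 per kb), again with overlapping ranges. Esrrb made up 38.8 ± 4.98% of the summed per-kb level of the 10 receptors in KO and 44.4 ± 6.02% in WT, with ranges of 34.2% to 45.7% and 36.1% to 49.9%.

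**Figure D1:**
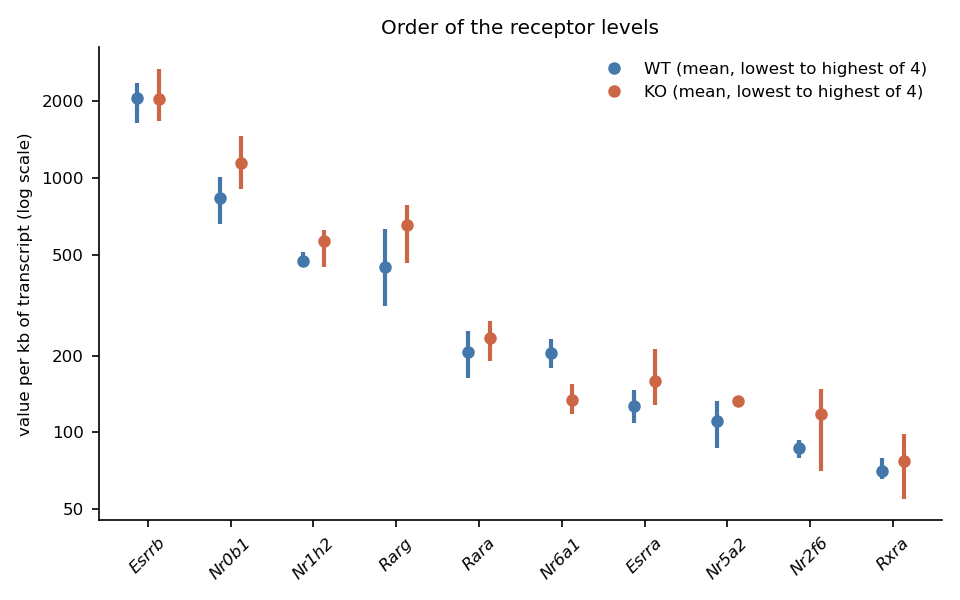
Level of each receptor per kb of its transcript (log scale), with the mean as a point and a line from the lowest to the highest of 4 libraries, WT in blue and KO in orange. Esrrb stands at 2056 per kb in WT and 2052 per kb in KO, and Nr6a1 is the receptor whose KO range (118 to 155) lies below its WT range (180 to 234).

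Of the 10 receptors, only Nr6a1 passed the criterion in the fit over all 8 libraries. Among all transcripts 4.25% passed it (2.49% lower and 1.76% higher in KO). Of all transcripts 10.1% had groups that did not overlap, 4.62% with KO lower, and among the receptors this was again Nr6a1 alone. No receptor had an adjusted p under 0.05 (limma, Benjamini-Hochberg over all transcripts), and neither had any other transcript. Without the adjustment 1232 transcripts (9.09%) had a p under 0.05, among them 1 receptor.

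Nr6a1, also called germ cell nuclear factor, is an orphan receptor with no known ligand. Its gene spans chr2:38723370-38927688 (mm10, minus strand). The deposited values were 752, 814, 919 and 704 in KO and 1393, 1068, 1279 and 1142 in WT. No KO library reached the lowest WT library. The mean was 797 ± 93.0 in KO and 1220.3 ± 144 in WT (SD, n = 4). Nr6a1 was thus 1.54-fold lower in KO, with a log2 fold change of -0.62 ± 0.15 (SE) and a 95% interval of -0.97 to -0.28. The adjusted p was 0.437 (limma, Benjamini-Hochberg). An exact two-sided permutation test over the 70 assignments of the libraries gave p = 0.0286, which is the smallest p that this design allows.

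The difference in Nr6a1 was of the same sign in both clones and on each day. In clone E3 it was -0.50 on the log2 scale and in clone 1 it was -0.84. Within days 3, 4 and 5 the log2 differences were -0.39, -0.48 and -0.70. With the day as a block the log2 fold change was -0.52 ± 0.11 (SE, limma adjusted p = 0.207), which no longer reached 1.5-fold. Likewise it was -0.50 within clone E3 and -0.56 without WT replicate 1, short of 1.5-fold in both cases. The fit without KO replicate 4 also gave -0.50. It leaves clone 1 with no KO library, so it repeats the contrast within clone E3 and is not a separate check. In bulk RNA, fewer cells that express a gene and less of its RNA per cell cannot be told apart.

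The 3′ UTR of Nr6a1, 4453 bases long and the longest among the 10 receptors, held 8 matches to the seed of the let-7 miRNAs. This miRNA family is known to repress Trim71 itself and to accumulate when mES cells differentiate. Its level was not analysed here. A seed is the stretch of bases 2 to 8 of a miRNA that pairs with its target, and the let-7 match in DNA letters is CTACCTC. The mature sequence of let-7a (RefSeq, from chr13:48538239-48538260, minus strand, mm10) is shown with the seed in capitals, followed by 3 of the 8 Nr6a1 matches and the only match in another receptor, that of Esrrb, with the match in capitals. The 3 Nr6a1 matches in capitals are those followed by an adenine. The last Nr6a1 line also ends in another of the 8 matches, which is left in lower case.
let-7a-5p: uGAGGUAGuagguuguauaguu
Nr6a1, chr2:38727440-38727468, minus strand: tgacaaagacaaCTACCTCaatggaaaca
Nr6a1, chr2:38726583-38726611, minus strand: aggggcattaaaCTACCTCatgtttctaa
Nr6a1, chr2:38723676-38723704, minus strand: tgcatcatgaacCTACCTCaggctacctc
Esrrb, chr12:86519670-86519698, plus strand: tgcttcctgcccCTACCTCagccagccgg

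All 8 Nr6a1 matches lie in exon 11 of 11. They begin 101, 371, 794, 1228, 3827, 4135, 4145 and 4310 bases into the 3′ UTR, so that a group of 4 near the stop codon and a group of 4 near the end are separated by a long stretch without a match. The match was present in 1612 of the 20512 mouse genes with an annotated 3′ UTR (7.86%), and Nr6a1 was the only gene with 8. The next gene had 6. The Esrrb match lies in exon 7 of 7. For comparison, the seed match of miR-294 (AGCACTT), a member of the main miRNA cluster of mES cells, was in 13.1% of genes and in none of the 10 receptors. A seed match describes the letters of a sequence and does not show that a miRNA binds there.

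**Figure D2:**
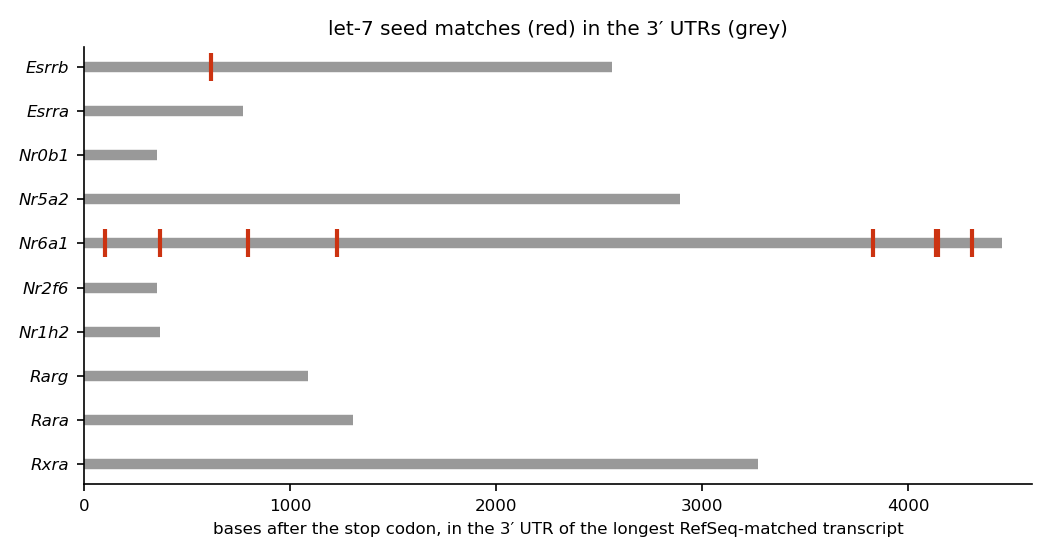
3′ UTR of each receptor as a grey bar whose length is the annotated number of bases after the stop codon, with let-7 seed matches as red ticks. Nr6a1 carries 8 matches in 4453 bases, Esrrb 1 match in 2563 bases, and the other 8 receptors none.

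Of the transcripts measured here, 1250 belonged to genes with at least 1 let-7 seed match. Among these, 44 (3.52%) passed the criterion lower and 22 (1.76%) higher in KO, against 2.49% and 1.76% of all transcripts, and their median log2 fold change was -0.02. With at least 2 matches 149 were measured, of which 6 passed lower and 2 higher, with a median of -0.06. The median over all 13558 transcripts was 0 to 2 decimals. Nr6a1 is counted in both sets.

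Nr5a2 (liver receptor homolog) at chr1:136842571-136960448 (minus strand) is known to activate Pou5f1 through elements that Nr6a1 can also occupy. Its values were 602, 633, 631 and 644 in KO and 625, 438, 632 and 411 in WT. The KO libraries were close together, and WT replicates 2 and 4 lay below all of them. Its fitted log2 fold change was 0.28 ± 0.18 (SE, limma adjusted p = 0.664), and the exact permutation p was 0.200. Within days it was 0.53 on day 3 and 0.65 on day 5, and on day 4 both libraries were nearly equal (0.999-fold).

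Set against each other within a library, Nr5a2 and Nr6a1 separated the genotypes. The log2 ratio of their deposited values, Nr5a2 over Nr6a1, was -0.32, -0.36, -0.54 and -0.13 in KO and -1.15, -1.29, -1.02 and -1.47 in WT. The mean was -0.34 ± 0.17 in KO and -1.23 ± 0.19 in WT (SD, n = 4), a difference of 0.89 (exact two-sided permutation p = 0.0286, 0.0429 after Benjamini-Hochberg adjustment over the 3 ratios tested). The mean difference within days 3, 4 and 5 was 0.91. This ratio contains the Nr6a1 difference and is not separate from it. The permutation took no account of clone or day, and other pairs of transcripts were not counted for comparison.

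Nr0b1 (Dax1), which lacks the usual DNA-binding domain and acts by binding other receptors, lies at chrX:86191764-86195947 (plus strand). It was measured at 1893, 2651, 1637 and 2071.5 in KO and at 1592, 1826, 1189 and 1407 in WT. The 3 highest of the 8 values were from KO libraries, but KO replicate 3 lay within the WT range. On the log2 scale KO was higher by 0.46 ± 0.21 (SE, limma adjusted p = 0.565, exact permutation p = 0.0571). Within days 3, 4 and 5 the KO library was higher by 0.54, 0.46 and 0.56 on the log2 scale, and with the day as a block the log2 fold change was 0.52 ± 0.09 (unadjusted p under 0.05, limma adjusted p = 0.206).

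Nr0b1 was also the receptor that the authors' clone correction had moved most relative to its level. With the correction undone it stood at 2373, 3130.2, 2116 and 1592 in KO and at 1112, 2306, 1668 and 928 in WT. The clone 1 libraries were the lowest of their genotype. In clone 1, the KO library was above both WT libraries, whereas in clone E3 WT replicate 2 was above KO replicate 3. The log2 fold change with a clone term remained 0.46, with an unadjusted limma p under 0.05.

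Esrrb, an orphan receptor that can sustain self-renewal without Nanog, lies at chr12:86361117-86521628 (plus strand). Its deposited values were 7217, 8149.9, 11580.3 and 8353 in KO and 10053, 7071, 10142 and 8103 in WT. The ranges overlapped almost entirely. The fold change of KO over WT was 0.997 with a 95% interval of -0.49 to 0.48 on the log2 scale (limma adjusted p = 0.995, exact permutation p = 1.00). A change within that interval, in either direction, thus remains possible. Within days 3, 4 and 5 the log2 differences were 0.20, 0.19 and 0.04.

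Esrra, the related receptor that drives genes of mitochondrial metabolism with its coactivators, lies at chr19:6910977-6921813 (minus strand). The values were 286, 305, 478 and 360 in KO and 305, 244, 330.4 and 263 in WT. KO replicates 3 and 4 lay above all WT libraries and the others lay among them. Esrra was 0.31 ± 0.20 higher on the log2 scale in KO (SE, limma adjusted p = 0.670, exact permutation p = 0.171), and 0.43 ± 0.10 higher with the day as a block (unadjusted p under 0.05, limma adjusted p = 0.210).

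The ratio of the oestrogen-related receptors separated the genotypes, although the groups overlapped for both receptors alone. The log2 ratio of Esrrb to Esrra was 4.65, 4.74, 4.60 and 4.53 in KO and 5.04, 4.85, 4.94 and 4.94 in WT. The highest KO ratio lay below the lowest WT ratio. The means were 4.63 ± 0.09 and 4.94 ± 0.07 (SD, n = 4), and the difference of -0.31 was 0.806-fold (exact two-sided permutation p = 0.0286, 0.0429 adjusted over the 3 ratios). Within days 3, 4 and 5 the mean difference was -0.29. The ratio shows unequal change of the pair and does not say which of them moved. How many other pairs of transcripts separate the genotypes as fully was not counted. Of single transcripts, 10.1% had groups that did not overlap. The permutation took no account of clone or day.

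Rarg, a retinoic acid receptor well expressed in mES cells, lies at chr15:102234938-102257517 (minus strand). It was at 1371, 2042, 2029 and 2304.5 in KO and at 927, 1861, 1155 and 1354 in WT. KO replicates 2, 3 and 4 were the highest of all libraries, but KO replicate 1 lay below WT replicate 2. A log2 fold change of 0.55 ± 0.27 resulted (SE, limma adjusted p = 0.586, exact permutation p = 0.0571), with a 95% interval of -0.08 to 1.18. It was 0.57 ± 0.18 with the day as a block (unadjusted p under 0.05, limma adjusted p = 0.239). Without KO replicate 1 it was 0.70 and without WT replicate 2 it was 0.82, and both fits passed the criterion. Without KO replicate 4, which leaves only the contrast within clone E3, it was 0.28.

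Rara, the retinoic acid receptor most widely expressed across tissues, lies at chr11:98927818-98974942 (plus strand). The values were 645, 819.8, 922 and 806 in KO and 848, 721, 698 and 554 in WT. These ranges overlapped over most of their extent. Rara differed by 0.18 ± 0.18 on the log2 scale (SE, limma adjusted p = 0.763, exact permutation p = 0.343), and by 0.38 ± 0.12 with the day as a block (unadjusted p under 0.05, limma adjusted p = 0.238). The log2 ratio of Rarg to Rara was 1.26 ± 0.19 in KO and 0.88 ± 0.58 in WT (SD, n = 4). The difference of 0.39 was within the spread of the WT libraries (exact two-sided permutation p = 0.314), whose lowest ratio was 0.13 in WT replicate 1.

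Rxra, the common partner of retinoic acid, liver X and other receptors, lies at chr2:27676440-27762957 (plus strand). It was at 269, 363, 482 and 401 in KO and at 322, 326, 389.9 and 350.1 in WT. The WT values lay inside the KO range. The fit gave a log2 fold change of 0.10 ± 0.20 (SE, limma adjusted p = 0.882, exact permutation p = 0.600), with a 95% interval of -0.37 to 0.57.

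Nr1h2 (liver X receptor beta), which responds to oxysterols, lies at chr7:44549616-44553951 (minus strand). Its values were 898, 1250.3, 1201 and 1170.4 in KO and 954, 1024, 901 and 889.7 in WT. KO replicates 2, 3 and 4 lay above every WT library and KO replicate 1 near the bottom of the WT range. Over 8 libraries the log2 fold change was 0.25 ± 0.15 (SE, limma adjusted p = 0.640, exact permutation p = 0.114). It was 0.37 ± 0.09 with the day as a block (limma adjusted p = 0.220) and 0.35 without KO replicate 1, both with an unadjusted p under 0.05.

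Nr2f6, an orphan receptor of the COUP-TF group that mostly represses, lies at chr8:71374123-71381960 (minus strand). The libraries gave 156, 328, 294 and 265 in KO and 206, 204, 186 and 176 in WT. KO replicates 2, 3 and 4 were the highest of all, and KO replicate 1 was the lowest of all. Over 8 libraries the difference on the log2 scale was 0.39 ± 0.25 (SE, limma adjusted p = 0.659, exact permutation p = 0.171). With the day as a block, which leaves out KO replicate 1 and WT replicate 1, it was 0.64 ± 0.09 (1.56-fold, limma adjusted p = 0.199), and Nr2f6 was then the only receptor past the criterion. Within days 3, 4 and 5 Nr2f6 was 1.60-fold, 1.58-fold and 1.5-fold higher in KO.

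**Figure D3:**
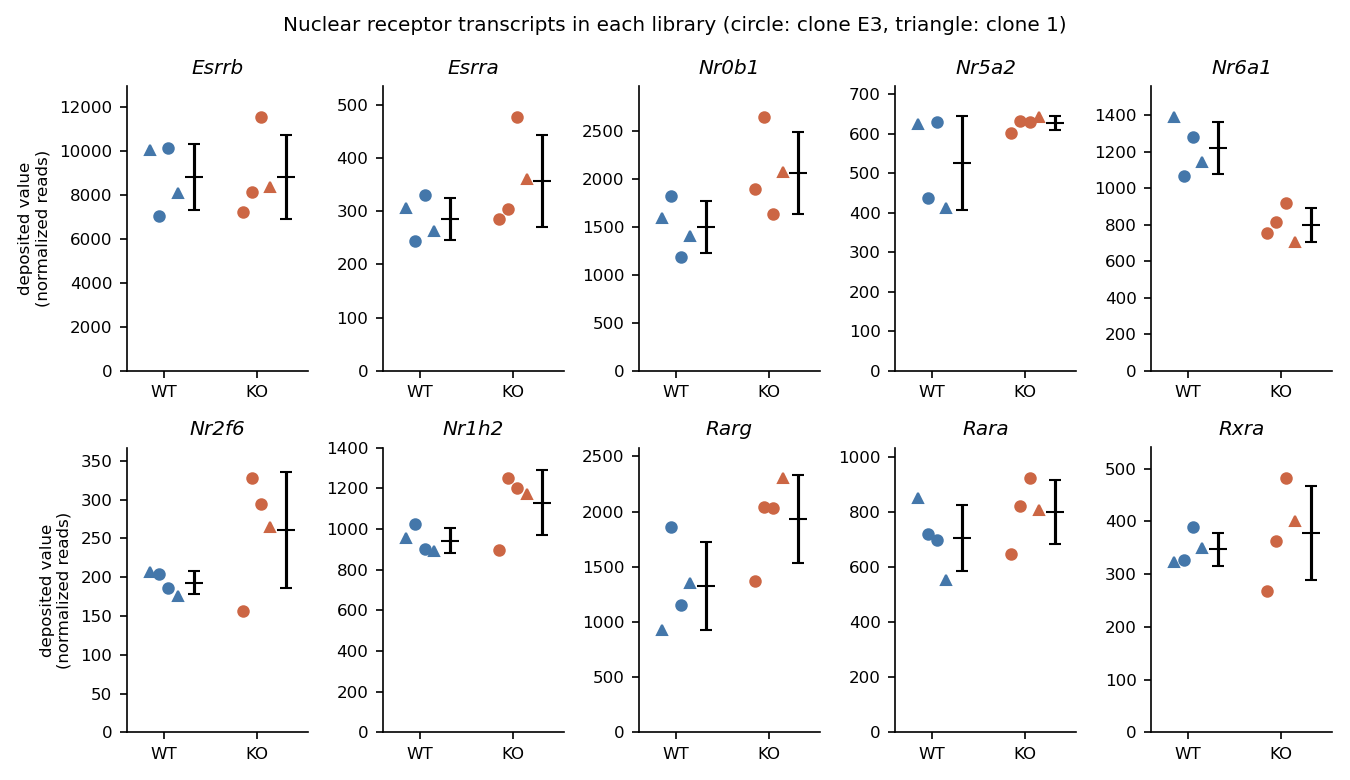
Deposited value of each receptor in each library (linear axes from 0), WT in blue and KO in orange, circles for clone E3 and triangles for clone 1, with the mean ± SD of 4 libraries in black. Nr6a1 is the only receptor whose groups do not overlap. In Nr2f6 and Nr1h2 a single KO library, replicate 1, lies well below the other 3.

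The receptors other than Nr6a1 mostly had higher values in KO. The fitted log2 fold change over 8 libraries was above 0 in 8 of 10 receptors, against 50% of all transcripts, and the median was 0.27 against 0 to 2 decimals over all transcripts. Within days, the KO library was the higher in 26 of 30 comparisons. On each of the 3 days KO was higher for 8 receptors and lower for Nr6a1, where 24.6% of all transcripts were higher and 25.5% lower on all 3 days. The exception was Nr5a2 on day 4. Receptors measured in the same libraries are not independent of each other, and these counts carry no test.

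Restricting the fit to the 6 libraries of days 3, 4 and 5 moved several calls. Without a block, 5 of 10 receptors then had an unadjusted p under 0.05 (Nr6a1, Nr2f6, Nr1h2, Rarg and Rara) and Nr2f6 alone passed the criterion. The share of all transcripts was not counted for that fit, so these counts have no background beside them. With the day as a block on the same libraries, 7 of 10 receptors had an unadjusted p under 0.05, 6 of them higher in KO (Esrra, Nr0b1, Nr2f6, Nr1h2, Rarg and Rara) and Nr6a1 lower. In this fit 19.2% of all transcripts had such a p (9.92% higher), and 7.49% passed the criterion. The smallest adjusted p of a receptor across all 24 settings was 0.0931, and so none passed 0.05 after adjustment over all transcripts.

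**Figure D4:**
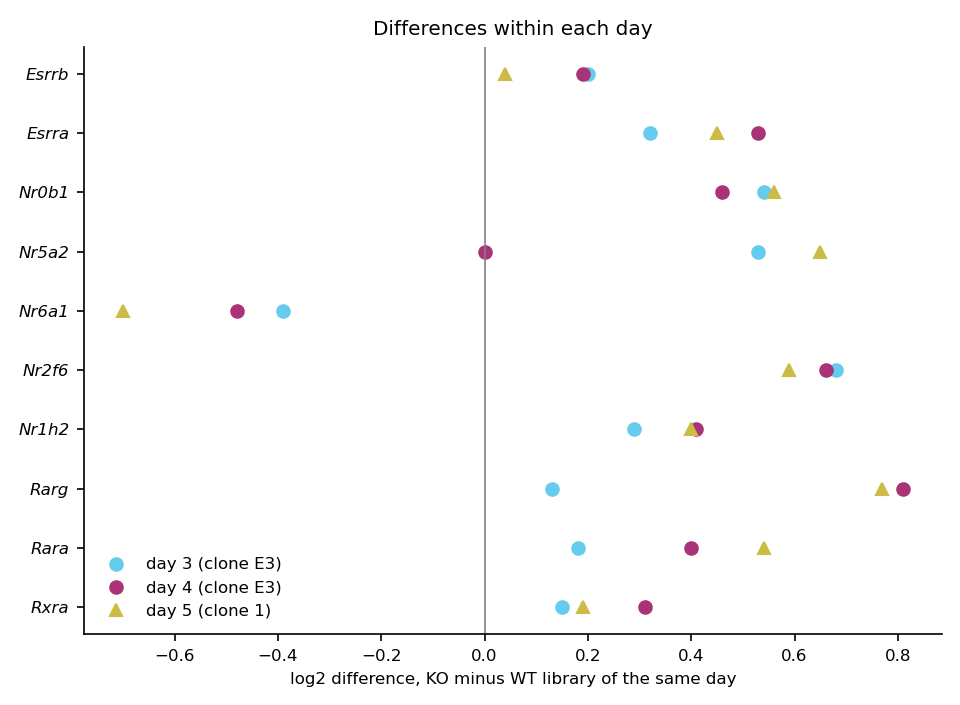
Log2 difference between the KO and WT library of the same day for each receptor, on day 3 and day 4 (circles, clone E3) and day 5 (triangles, clone 1). Nr6a1 lies left of 0 on every day, and the other receptors lie right of 0, apart from Nr5a2 on day 4.

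KO replicate 1 was the lowest KO library for 8 of the 10 receptors, against 29.8% of all transcripts. It is the KO library from day 2, with no WT library of that day beside it, and compared with the mean of the other KO libraries of clone E3 its log2 difference was -0.99 for Nr2f6, -0.64 for Rxra and -0.57 for Rarg. What the day label stands for is not stated, and its part in these differences was not tested.

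**Figure D5:**
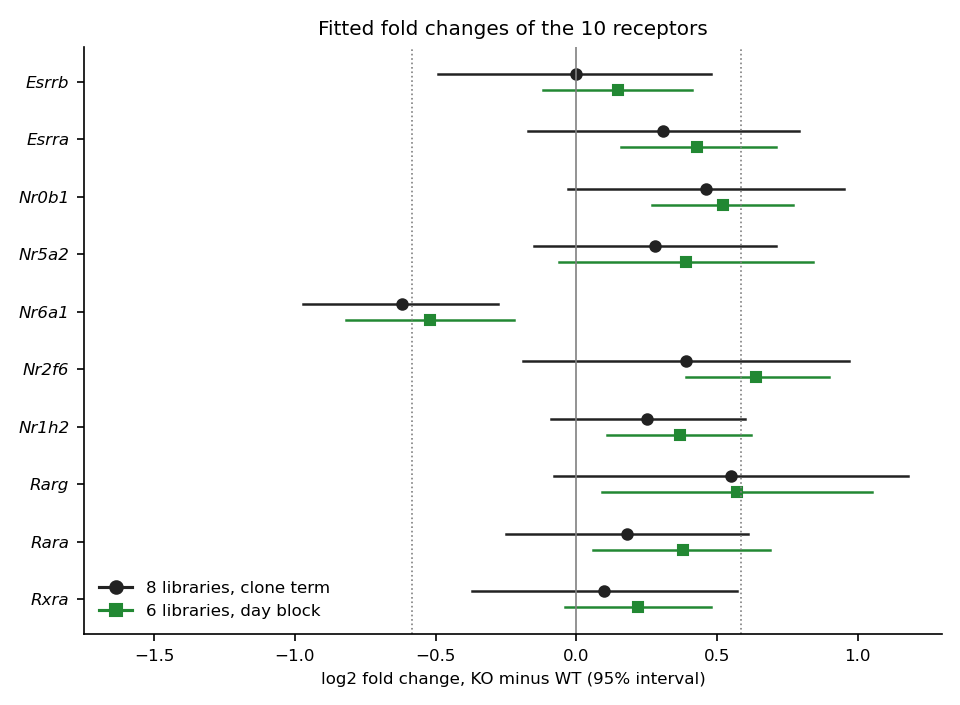
Log2 fold change of KO over WT with its 95% interval for each receptor, in black for the fit over 8 libraries with a clone term and in green for the fit over 6 libraries with the day as a block. Dotted lines mark 1.5-fold in either direction. The point for Nr6a1 lies at -0.62 and -0.52 in these fits, and Nr2f6 moves from 0.39 to 0.64.

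The effect of genotype was also compared between the clones. No receptor had an interaction p under 0.05 (limma). The smallest was that of Rarg, with a log2 difference between the clones of 0.76 ± 0.53 (SE, limma adjusted p = 1.00). Clone 1 had only 1 KO library, which limits this comparison.

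Of the other 39 nuclear receptors of the mouse, 12 were in the table, and none of these 12 passed the criterion, with 6 above and 6 below 0 and their median at 0.02 on the log2 scale. Rxrb, the second retinoid X receptor and the highest of the 12 in deposited value, was at 893 ± 118 in KO and 806 ± 82.8 in WT (SD, n = 4, log2 fold change 0.15, limma adjusted p = 0.762). The immediate early receptor Nr4a1 came closest, with 694, 806, 754 and 896 in KO and 424, 620.5, 540.4 and 521 in WT. Its groups did not overlap, and it was 1.49-fold higher in KO (log2 fold change 0.57 ± 0.16, limma adjusted p = 0.452). It passed the criterion in some fits that left out a library, and it is named here after its values were seen.

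None of the measured cofactors passed the criterion over 8 libraries. Of the coactivators, which join ligand-bound receptors to the transcription machinery, 13 of 14 were measured, 3 above and 10 below 0, and the median log2 fold change was -0.11. Ncoa3, the coactivator with the highest deposited value over all 8 libraries (Prmt1 was higher in KO), was at 6231 ± 1048 in KO and 6015 ± 759 in WT (SD, n = 4). The 10 corepressors, all measured, had 3 above and 7 below 0 and a median of -0.13, with Ncor1 at 6593 ± 1073 in KO and 7100.0 ± 585 in WT. With the day as a block the coactivator Ncoa7 passed the criterion lower in KO (log2 fold change -0.79, limma adjusted p = 0.207) and the corepressor Hr higher (0.80, adjusted p = 0.202). Over 8 libraries Ncoa7 was at -0.59 (limma adjusted p = 0.625) and Hr at 0.56 (adjusted p = 0.702).

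Of 16 genes of retinoid synthesis, transport and breakdown 11 were measured, 3 above and 8 below 0, and none passed the criterion. Their median log2 fold change was -0.16. Dhrs4, a retinal reductase and the gene of this list with the highest deposited value, was at 482 ± 111 in KO and 513 ± 67.9 in WT (SD, n = 4). Aldh1a2, which makes retinoic acid, had an unadjusted p under 0.05 (log2 fold change -0.55, limma adjusted p = 0.516) and was under 1.5-fold. It was low, at 25.6 ± 6.70 in KO and 36.8 ± 4.29 in WT.

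No gene of the 3 lists of receptor targets passed the criterion. Of 16 genes that retinoic acid is known to induce in mES cells, 10 were measured, 5 above and 5 below 0, and the median log2 fold change was -0.08. Tgm2 had the highest deposited value of them, with 389 ± 75.9 in KO and 328 ± 148 in WT (SD, n = 4), and Cyp26a1, the enzyme that breaks down retinoic acid and a sensitive target, was at only 10.1 ± 3.09 in KO and 11.4 ± 2.87 in WT. Of the liver X receptor targets 10 of 12 were measured, 7 above and 3 below 0, with a median of 0.11. Apoe, the highest of them in deposited value over all 8 libraries (Fasn was higher in WT), was at 12032 ± 3339 in KO and 9162 ± 2354 in WT (log2 fold change 0.39, limma adjusted p = 0.681). Of the metabolic targets of the oestrogen-related receptors, a list that includes Esrra itself, 14 of 15 were measured, 12 above and 2 below 0, with a median of only 0.05. Atp5b, a subunit of the mitochondrial ATP synthase, was at 32628 ± 2829 in KO and 31193 ± 1000.4 in WT.

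Markers of other cell types were read alongside the receptors. Fibroblast markers (5 of 9 measured) summed to 166 to 321 in KO and 167 to 295 in WT, and none passed the criterion over 8 libraries. Pdgfrb passed it lower in KO with the day as a block (log2 fold change -0.73, limma adjusted p = 0.199). Its level was low, at 7.22 ± 0.872 in KO and 11.28 ± 3.95 in WT (SD, n = 4). Primitive endoderm markers (9 of 10 measured) summed to 4427 to 6461 in KO and 2289 to 5644 in WT. Of these 9, 6 were above and 3 below 0, none passed the criterion, and their median log2 fold change was 0.74 over 8 libraries and 0.02 without KO replicate 4. Leaving out that library takes the only KO library from clone 1. The genotype contrast then rests on clone E3 alone, and the clone 1 WT libraries drop out of it as well. With the day as a block, Dab2 (log2 fold change -0.75) and Pdgfra (-0.68) passed the criterion lower in KO. Gata6, a defining factor of that lineage, was at 44.7 to 125 in KO and at 1.00, 43.9, 57.2 and 8.20 in WT, so that WT replicate 1 was at the floor. Neural markers (6 of 9 measured) summed to 1560 to 2056 in KO and 1549 to 2152 in WT. Of these 6, 3 were above and 3 below 0, with the median at -0.23. Olig2 alone passed the criterion (1.60-fold higher, limma adjusted p = 0.424). Nes did not overlap between the groups and was lower in KO, with a log2 fold change of -0.50 (limma adjusted p = 0.460), short of 1.5-fold. Mesoderm markers (4 of 6 measured) summed to 137 to 168 in KO and 103 to 173 in WT, with none past the criterion. The part of other cell types in the receptor values was not tested.

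Across the 8 libraries, the transcripts most like Nr6a1 were Reck (Pearson r = 0.990), Znfx1 (r = 0.990) and Asxl1 (r = 0.986), out of 11060 transcripts whose mean was 50 or more and that never reached the floor. Reck was at 115, 112, 139 and 104 in KO and at 253, 177, 229 and 179.6 in WT. It separated the genotypes as Nr6a1 did, which is likely for a transcript picked by its likeness to Nr6a1. Among those most like Esrrb were Tbc1d16 (r = 0.991) and Ldb1 (r = 0.991). Ldb1 was at 2017, 2246, 2897 and 2301 in KO and at 2492, 2004, 2570.5 and 2212 in WT, with KO replicate 3 highest as in Esrrb. These correlations describe 8 libraries of 2 genotypes and 2 clones, which differ in depth, and carry no test.

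The promoters of the receptors were searched for the element AAGGTCA, which Esrrb and Nr5a2 are known to recognise within a longer sequence. Promoters ran from 250 bases before to 50 bases after a start site (RefSeq, mm10), both strands were read, and the 10 receptors had 18 promoters. The element was found in 2 of these, at Rxra and Nr6a1, and in 4.72% of 32851 mouse promoters. Both promoters belong to start sites inside the gene, and the promoters at the outermost start sites given for Rxra and Nr6a1 did not hold it. Only this short element was searched for and not the longer sequence, so a match is not by itself a site for these receptors. The matches begin 49 and 91 bases before these inner start sites and are shown with the element in capitals.
Rxra, chr2:27709232-27709261, plus strand: gggtggcaggaAAGGTCAgtcactctctgt
Nr6a1, chr2:38784589-38784618, plus strand: gttcaggctctAAGGTCAcagtgtgcatgg

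Nr6a1 is transcribed from the minus strand, so its element is read against the direction of the gene. The retinoic acid response element of the form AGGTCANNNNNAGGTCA was found in 3 of all promoters and in none of the receptors' own. Sequence matches say nothing here of binding, which was not measured.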

How the data were processed

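mRNA-seq libraries of 4 KO and 4 WT samples were analysed from the table that the authors deposited. Per the study's methods and the submitters' processing notes, reads were called with CASAVA 1.8, aligned to mm10 with TopHat2 and Bowtie2 2.2.1, counted per RefSeq transcript in Partek 6.6, normalized with DESeq2, batch-corrected and floored at 1, and transcripts whose higher group mean was under 10 were dropped. What was deposited is thus a corrected, normalized signal and not raw counts. The kit does not mark strand, so reads of overlapping antisense genes are included. No per-sample column was left unused.

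A clone effect fitted on the linear scale was 0 in each of the 13350 transcripts that never reached the floor, so the correction was additive. It was undone as whole reads times a library factor plus a shift, which gave unique whole reads for 13297 transcripts (98.07%). Recovered totals cover the deposited transcripts only.

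Transcripts were tested with limma 3.58.1 (R 4.3.3) on log2(value + 1) for genotype with clone as a covariate, over all 13558 transcripts, with Benjamini-Hochberg adjustment. Fold changes are on that scale, which understates changes of low transcripts. For single values and ratios the exact permutation test, two-sided, ran over 70 assignments (smallest p 0.0286), without regard to clone or day. The day labels pair 6 libraries. With the correction undone, deviations from the group means correlated at 0.56, 0.65 and 0.50 within days 3, 4 and 5, against a median of -0.19 over the other 13 KO and WT pairs. As deposited, the same-day values were 0.49, 0.58 and -0.22, against a median of 0.06 over the other 13 pairs. Libraries of the same day are also of the same clone, whereas many of the other pairs cross clones. With the correction undone, these correlations thus cannot tell a shared day from a shared clone. Alternatives were a pseudocount of 10, a mean of at least 50, no floored transcripts, no clone term, a linear model, a trended prior, quantile normalization, the day block, the 6 paired libraries without the block, clone E3 alone, the correction undone, voom on recovered reads, and leaving out each library. After seeing the data, 2 were added: the correction undone without a clone term, and with the day block.

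The named genes are the 10 receptors, Trim71, list genes past the criterion, each list's gene with the highest value, and for Esrrb and the receptor with the smallest p the 3 most correlated transcripts. Others are named after their values were seen (Nr4a1, Aldh1a2, Cyp26a1, Gata6, Fasn, Prmt1, Dab2, Pdgfra, Pdgfrb, Nes). Some transcripts that these rules select are left out of the text. The receptors and lists were chosen with earlier results of these data known. Positions and 3′ UTRs are from GENCODE M21 (GRCm38, the same assembly as mm10). Python 3.11.15, numpy 2.4.6, pandas 2.3.3 and matplotlib 3.10.9 were used.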

Additional observations from a re-analysis of the deposited data

Results flagged for a closer look

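In the 20 groups of 4 libraries examined (10 receptors in KO and WT), no library stood apart from the other 3 by Dixon's test at the 95% level, where chance alone would give about 1.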

How the results depend on the processing

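Nr6a1 was lower in KO with an unadjusted p under 0.05 in all 23 alternatives (log2 fold change -0.73 to -0.50, limma), and no receptor had an adjusted p under 0.05 in any. The alternatives overlap. Clone E3 alone and the fit without KO replicate 4 rest on the same genotype contrast. The receptors past the criterion numbered 1 in the reported fit, 0 in clone E3 alone and 2 with voom and the replicate block (Nr2f6 and Rarg). In the 6 paired libraries the count stayed at 1 but the receptor was Nr2f6 and not Nr6a1, without the block as well as with the day as a replicate block (also with the clone correction undone). Leaving out a library gave 0 to 3 receptors: 0 without KO replicate 4 or WT replicate 1, and 3 without KO replicate 1 (Nr6a1, Nr2f6 and Rarg) or WT replicate 2 (Nr0b1, Nr6a1 and Rarg). The receptors with an unadjusted p under 0.05 numbered 1 in the reported fit, 3 without the clone term, 2 with the trended prior, 2 after quantile normalization, 2 with the clone correction undone, 3 with voom, 5 in the 6 paired libraries without the block, 7 with the replicate block (also with the correction undone) and 8 with voom and the replicate block, and 1 to 4 when a library was left out (4 without KO replicate 1, 3 without WT replicate 2, 2 without KO replicate 3). Of the other receptors, 0 passed the criterion in the reported fit and 1 (Nr4a1) without the clone term, whether or not the correction was undone, with 0 to 2 when a library was left out (2 without KO replicate 3, Vdr and Nr4a1, and 1 without KO replicate 1 or WT replicate 2). Of the cofactor and target genes, 0 passed in the reported fit, 1 without the clone term, with the correction undone, with both, or with voom (Stra6 or Aldh1a2), and 2 with the replicate block under each of its 3 fits (Hr and Ncoa7), with 0 to 3 when a library was left out (3 without WT replicate 3, 2 without WT replicate 2, and 1 without KO replicate 1 or KO replicate 2). Shares over all transcripts were counted only for the reported fit and the fit with the day as a block. Counts from the other settings thus have no background beside them. The causes of these differences were not tested. Trim71 stayed past the threshold throughout (-2.70 to -1.81 without a library). KO replicate 4 had its lowest deposited value. With the clone correction undone, KO replicate 1 was the lowest (223) and KO replicate 4 the highest of the KO libraries (524). Without a library, the Esrrb to Esrra ratio differed by -0.35 to -0.28, the Nr5a2 to Nr6a1 ratio by 0.81 to 0.97 and the Rarg to Rara ratio by 0.14 to 0.55, the last falling to 0.14 without WT replicate 1. The Rarg to Rara ratio did not pass the threshold in any setting with a test. Under the replicate block the ratios are mean within-day differences with no test (-0.29 for Esrrb to Esrra, 0.20 for Rarg to Rara and 0.91 for Nr5a2 to Nr6a1), and the clone interaction was not fitted with it (no receptor had an interaction p under 0.05, also with the correction undone). With 4 libraries per group the intervals given with the receptors are wide, and a true difference anywhere within them remains possible.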
